A study of Mus musculus with 2 samples.

Results

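The genes described here encode the cascade by which the ON bipolar cells of the retina answer glutamate: the receptor Grm6, the channel Trpm1, the scaffold and adhesion proteins Nyx, Gpr179 and Lrit3, the G protein subunits Gnao1 and Gng13, and the regulators Rgs7, Rgs11 and Gnb5. They were chosen by symbol for their place in the pathway, with earlier results of these data known. All 10 were found among the 32285 genes of the count tables. Single-cell RNA-seq (10x Genomics 3' chemistry v3.1) was made from enzymatically dissociated retinas of untreated mice aged 13 weeks. One library came from db/db mice (C57BLKS-Leprdb/db), a Lepr mutant model of type 2 diabetes, and the other from wild-type mice (C57BLKS-Leprwt/wt, called m/m in the design). Each library pooled both retinas of 2 mice, and no label ties a cell to a mouse. With 1 library per genotype no difference between genotypes has a replicate check and none was tested.

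In the dark, photoreceptors release glutamate steadily. On the dendrites of rod bipolar and ON cone bipolar cells that glutamate binds mGluR6 (Grm6), which acts through the G protein Go and closes the cation channel TRPM1, and light, by lowering glutamate, lets the channel open. A complex of RGS7 or RGS11 with Gnb5, anchored by GPR179, speeds the shut-off of Go, and nyctalopin (Nyx) and LRIT3 are needed to place TRPM1 at the dendritic tips. OFF bipolar cells use ionotropic glutamate receptors in place of this cascade, and loss of several of these genes causes congenital stationary night blindness in humans.

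The deposited tables held 11083 barcodes and 33742189 UMIs (unique molecular identifiers, each standing for 1 captured transcript) in the db/db library, and 10308 barcodes and 35642274 UMIs in the wild-type library. After removal of barcodes with under 200 genes or over 20% mitochondrial UMIs, 10963 db/db and 10230 wild-type cells were kept, with medians of 2051 UMIs per db/db cell and 2314 UMIs per wild-type cell. The libraries shared 26 barcodes. Lepr, the mutated gene, had 6 UMIs in the kept db/db cells and 6 in the kept wild-type cells, too few to check the labels. Classes were rebuilt here by clustering without the 10 cascade genes and the pathway lists used below, and were named from marker genes, so "-like" is implied in every class name.

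Bipolar cells made up 500 of the kept db/db cells (4.56%, exact 95% interval 4.18 to 4.97%) and 695 of the kept wild-type cells (6.79%, 6.31 to 7.30%). There were 79 db/db and 127 wild-type rod bipolar cells, 189 db/db and 237 wild-type ON cone bipolar cells, and 111 db/db and 127 wild-type OFF bipolar cells. A further 24 db/db and 44 wild-type bipolar cells, led by Gas1, stayed unnamed. Another 97 db/db and 160 wild-type cells lay in clusters led by Pde6h and by Rcvrn. Rod transcripts in these clusters were above the limit set for a clean bipolar cluster. Their cells are still counted among bipolar cells, and held 25.7% of bipolar UMIs in db/db and 25.4% in wild type. Marker levels in the named subtypes were as follows. Apart from Grik1, the markers given here also served to name the clusters, so their levels are no separate check of the names. Prkca, the protein kinase that marks rod bipolar cells, was at 1622 CPM (UMIs per 1e6 UMIs of the class) in db/db and 1809 CPM in wild-type rod bipolar cells, against 27.5 CPM in db/db and 20.04 CPM in wild-type ON cone bipolar cells. Isl1, a transcription factor of ON bipolar cells that was also among the naming markers, was at 849 CPM in db/db and 787 CPM in wild-type ON cone bipolar cells, and at 0 CPM in db/db and 57.4 CPM (21 UMIs) in wild-type OFF bipolar cells. Grik1, a kainate receptor of OFF bipolar cells that was left out of clustering and naming, was at 1960 CPM in db/db and 1257 CPM in wild-type OFF bipolar cells, against 20.1 CPM in db/db and 10.0 CPM in wild-type ON cone bipolar cells. Of the 13 rod bipolar markers 12 were detected in that class in each library, with Dpp10 at 0. Of the 19 OFF markers 19 were detected in db/db and 18 in wild-type OFF bipolar cells, but markers of the ON cone list, which holds Slitrk6, also summed to 2700 CPM in db/db and 1825 CPM in wild-type OFF bipolar cells, against 2469 CPM in db/db and 3049 CPM in wild type for the OFF list itself. The rod bipolar list summed to 3186 CPM in db/db and 2970 CPM in wild-type OFF bipolar cells. When cells were assigned by their own marker counts instead, 180 OFF bipolar cells kept their name, 53 were read as ON cone and 5 as rod bipolar. Of the ON cone bipolar cells 318 kept their name, 88 were read as OFF and 20 as rod bipolar, while 199 rod bipolar cells kept theirs, 6 were read as OFF and 1 as ON cone. The line between ON cone and OFF bipolar cells was thus less sharp than that around rod bipolar cells.

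Grm6, the glutamate receptor that starts the cascade (ENSMUSG00000000617, chromosome 11, 50850685 to 50866208, plus strand, GRCm38), was highest in rod bipolar and ON cone bipolar cells, and 83.6% of its 956 UMIs over both libraries lay in bipolar cells. In rod bipolar cells it had 103 UMIs in the db/db library (348 CPM, exact Poisson 95% interval 284 to 422) and 137 UMIs in the wild-type library (280 CPM, 235 to 331). In ON cone bipolar cells it had 167 UMIs in the db/db library (306 CPM, 261 to 356) and 245 UMIs in the wild-type library (351 CPM, 308 to 397). The intervals of these subtypes overlapped in both libraries, so rod bipolar and ON cone bipolar cells could not be ordered by Grm6. These intervals, and all others given here, cover counting error only and not differences between mice.

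In OFF bipolar cells Grm6 had 0 UMIs in 111 db/db cells, which allows up to 12.03 CPM, and 11 UMIs (30.1 CPM) in the wild-type library, where they came from 4 of 127 cells. The 21 UMIs of Isl1 in the same wild-type class stood beside 0 in db/db, and whether cells of another subtype lay among these was not tested. Rods were at 1.43 CPM in the db/db library and 2.17 CPM in the wild-type library. Before thinning, Grm6 was seen in 68.4% of db/db and 64.6% of wild-type rod bipolar cells, at medians of 3727 UMIs per cell in db/db and 3864 in wild type, against 0.379% of db/db and 0.641% of wild-type rods, at medians of 1931 UMIs in db/db and 2193 in wild type. After every cell was thinned to 1000 UMIs, the share of rod bipolar cells with Grm6 was 35.1% in db/db (24.4 to 47.1%) and 22.0% in wild type (14.9 to 30.6%), and that of rods was 0.1697% in db/db and 0.333% in wild type, rods being a class that should lack the gene. The share in rod bipolar cells lay far above that background in both libraries, and the intervals of the genotypes overlapped.

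Trpm1, the channel that carries the light response (ENSMUSG00000030523, chromosome 7, 64153835 to 64269775, plus strand), followed a steeper order of classes. Rod bipolar cells had 1060 UMIs in the db/db library (3583 CPM, 3370 to 3805) and 2011 UMIs in the wild-type library (4115 CPM, 3937 to 4299). ON cone bipolar cells had 841 UMIs in the db/db library (1539 CPM, 1437 to 1647) and 1108 UMIs in the wild-type library (1586 CPM, 1494 to 1682). OFF bipolar cells had 82 UMIs in the db/db library (267 CPM, 213 to 332) and 210 UMIs in the wild-type library (574 CPM, 499 to 657). Rods were at 4.78 CPM in the db/db library and 8.70 CPM in the wild-type library. Rod bipolar, ON cone bipolar, OFF bipolar and rod intervals were disjoint in both libraries, so that order held in each. Trpm1 was thus present in the OFF class at a level far above that of rods in both libraries. Grm6 in the OFF class was at 0 CPM in db/db, against 1.43 CPM in db/db rods. In wild type it was at 30.1 CPM there, against 2.17 CPM in rods. At 1000 UMIs per cell it was seen in 93.2% of db/db and 99.2% of wild-type rod bipolar cells, in 14.4% of db/db and 31.8% of wild-type OFF bipolar cells, and in 0.679% of db/db and 0.953% of wild-type rods. Without thinning the shares were 98.7% of db/db and 100% of wild-type rod bipolar cells, 37.8% of db/db and 52.8% of wild-type OFF bipolar cells, and 1.25% of db/db and 2.42% of wild-type rods.

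**Figure D1:**
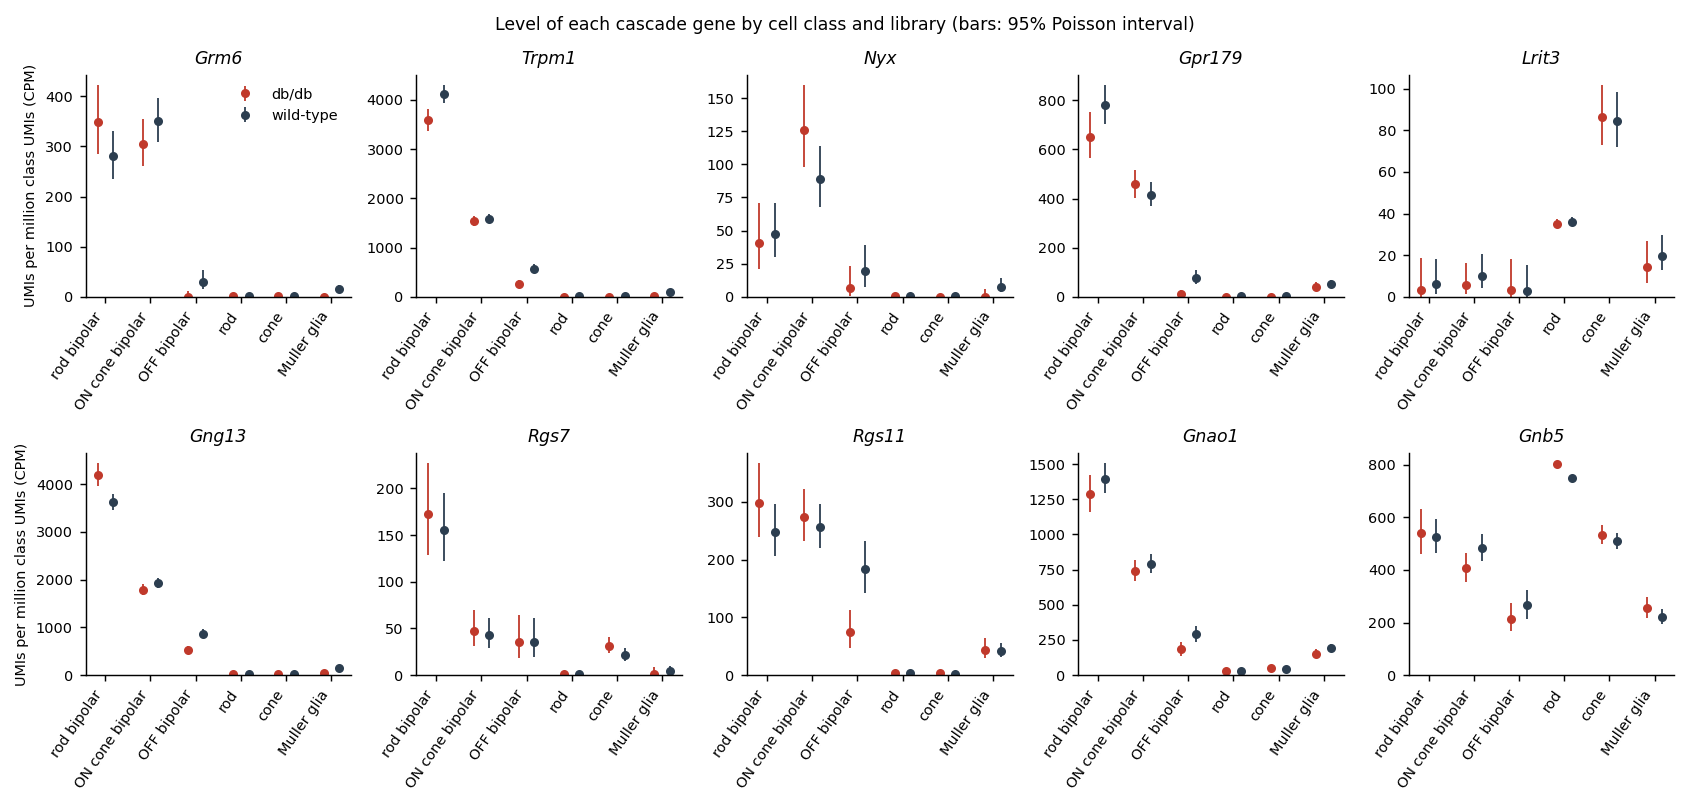
Level of each of the 10 cascade genes in CPM (vertical axes, linear, each panel with its own scale) in 6 cell classes, with db/db left of wild type and bars for the exact Poisson 95% interval. Trpm1 is highest in rod bipolar cells (3583 CPM in db/db, 4115 CPM in wild type), lower in ON cone bipolar and lowest of the bipolar subtypes in OFF bipolar cells, while Lrit3 is highest in cones and Gnb5 in rods.

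Nyx, the leucine-rich repeat protein nyctalopin (ENSMUSG00000051228, chromosome X, 13466110 to 13489313, plus strand), leaned to ON cone bipolar cells. There it had 69 UMIs in the db/db library (126 CPM, 98.2 to 160) and 62 UMIs in the wild-type library (88.7 CPM, 68.0 to 114). In rod bipolar cells it had 12 UMIs in the db/db library (40.6 CPM, 20.96 to 70.9) and 23 UMIs in the wild-type library (47.1 CPM, 29.8 to 70.6). The subtypes were disjoint in the db/db library and overlapped in the wild-type library. OFF bipolar cells held 2 Nyx UMIs in the db/db library and 7 in the wild-type library.

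Gpr179, the orphan receptor that tethers the RGS proteins (ENSMUSG00000070337, chromosome 11, 97332109 to 97352077, minus strand), was highest in rod bipolar cells. It had 193 UMIs there in the db/db library (652 CPM, 564 to 751) and 381 UMIs in the wild-type library (780 CPM, 703 to 862). Lower levels were read in ON cone bipolar cells, with 250 UMIs in the db/db library (458 CPM, 402 to 518) and 291 UMIs in the wild-type library (416 CPM, 370 to 467). OFF bipolar cells held 3 UMIs in the db/db library and 28 UMIs (76.5 CPM) in the wild-type library. The order rod bipolar, ON cone bipolar, OFF bipolar held with disjoint intervals in both libraries.

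Lrit3 (ENSMUSG00000093865, chromosome 3, 129787881 to 129804030, minus strand), which encodes the other leucine-rich repeat protein of the complex, was the one cascade gene with almost no UMIs in bipolar cells. It is known to be made by photoreceptors and to act across the synapse. Cones had 147 UMIs in the db/db library (86.5 CPM, 73.1 to 102) and 164 UMIs in the wild-type library (84.5 CPM, 72.1 to 98.5). Rods had 932 UMIs in the db/db library (35.1 CPM, 32.8 to 37.4) and 918 UMIs in the wild-type library (36.1 CPM, 33.8 to 38.6). Rod bipolar cells held 1 UMI in the db/db library and 3 in the wild-type library, and ON cone bipolar cells held 3 in the db/db library and 7 in the wild-type library. Of all 2615 Lrit3 UMIs over both libraries, 70.7% lay in rods and 1.15% in bipolar cells, where Trpm1 had 91.1% of its 6857 UMIs. Cones stood above rods with disjoint intervals in each library. Its log2 ratio of db/db to wild type was -0.04 in rods (-0.18 to 0.09) and 0.03 in cones (-0.30 to 0.36).

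Gnao1, the alpha subunit of Go (ENSMUSG00000031748, chromosome 8, 93809966 to 93969388, plus strand), had 381 UMIs in db/db rod bipolar cells (1288 CPM, 1162 to 1424) and 683 in wild-type rod bipolar cells (1398 CPM, 1295 to 1507). ON cone bipolar cells were at 743 CPM in the db/db library and 793 CPM in the wild-type library, and OFF bipolar cells at 183 CPM in the db/db library and 290 CPM in the wild-type library. Müller glia, the supporting cells that span the retina, were at 150 CPM in the db/db library and 192 CPM in the wild-type library, and wild-type amacrine cells, inhibitory interneurons, at 286 CPM. For the db/db library, with 29 amacrine cells, no level is given, since levels of classes were set for 50 or more cells. Rod bipolar and ON cone bipolar cells were disjoint in both libraries, whereas OFF bipolar cells and Müller glia overlapped in the db/db library. Gnao1 was thus read in more classes than Grm6 or Trpm1, with its highest level in rod bipolar cells.

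Gng13, the gamma subunit of the cascade's G protein (ENSMUSG00000025739, chromosome 17, 25717171 to 25719406, plus strand), was sharper. Rod bipolar cells had 1241 UMIs in the db/db library (4195 CPM, 3965 to 4435) and 1769 UMIs in the wild-type library (3620 CPM, 3453 to 3793). The ON cone bipolar level was 1790 CPM in the db/db library and 1935 CPM in the wild-type library, and the OFF bipolar level was 525 CPM in the db/db library and 863 CPM in the wild-type library. Rods were at 13.7 CPM in db/db and 16.8 CPM in wild type. These classes were disjoint in each library and ran in the same order as for Trpm1.

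Of the regulators, Rgs7, a GTPase-activating protein for Go (ENSMUSG00000026527, chromosome 1, 175059087 to 175492500, minus strand), had 51 UMIs in db/db rod bipolar cells (172 CPM, 128 to 227) and 76 in wild-type rod bipolar cells (156 CPM, 122 to 195). ON cone bipolar cells were at 47.6 CPM in the db/db library and 42.9 CPM in the wild-type library, OFF bipolar cells at 35.9 CPM in db/db and 35.5 CPM in wild type, and cones at 31.2 CPM in db/db and 21.1 CPM in wild type. Only rod bipolar cells stood clear of these classes, since the ON cone and OFF bipolar intervals overlapped in both libraries.

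Rgs11, the other RGS gene of the cascade (ENSMUSG00000024186, chromosome 17, 26202951 to 26211324, plus strand), had overlapping intervals in the ON subtypes of each library. Rod bipolar cells had 88 UMIs in the db/db library (297 CPM, 239 to 366) and 121 UMIs in the wild-type library (248 CPM, 206 to 296). ON cone bipolar cells had 150 UMIs in the db/db library (275 CPM, 232 to 322) and 179 UMIs in the wild-type library (256 CPM, 220 to 297). OFF bipolar cells had 23 UMIs in the db/db library (75.0 CPM, 47.6 to 113) and 67 UMIs in the wild-type library (183 CPM, 142 to 233). The OFF interval lay below both ON subtypes in the db/db library and overlapped them in the wild-type library.

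Gnb5, the G protein beta subunit that binds RGS proteins (ENSMUSG00000032192, chromosome 9, 75306288 to 75345876, plus strand), serves photoreceptors too, where it partners RGS9. Rods had 21338 UMIs in the db/db library (803 CPM, 792 to 813) and 19040 UMIs in the wild-type library (750 CPM, 739 to 760), the highest level of the classes measured in both libraries. Rod bipolar cells had 160 UMIs in the db/db library (541 CPM, 460 to 631) and 257 UMIs in the wild-type library (526 CPM, 464 to 594), overlapping cones at 534 CPM in db/db and 510 CPM in wild type. Lower levels were read in ON cone bipolar cells, 406 CPM in db/db and 484 CPM in wild type, and in OFF bipolar cells, 215 CPM in db/db and 265 CPM in wild type. Bipolar cells held 3.57% of all 49014 Gnb5 UMIs.

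Grm6, Gng13, Rgs11, Gnao1 and Gnb5 each share exonic bases with a gene on the opposite strand that is also in the count tables: Gm12660 (599 bases), Chtf18 (399), Arhgdig (138), 4930488L21Rik (284) and Gm19531 (248), in the same order. Whether strand was used in counting is not given in the sources used here, so reads of such a pair cannot be told apart with certainty.

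The cascade genes were also counted per cell. After thinning to 1000 UMIs, the median rod bipolar cell held UMIs of 5 of the 10 genes in the db/db library and of 4 in the wild-type library, the median ON cone bipolar cell 3 in both, and the median OFF bipolar cell 1 in both. At least 3 cascade genes were seen in 93.2% of db/db and 94.1% of wild-type rod bipolar cells, in 68.2% of db/db and 76.2% of wild-type ON cone bipolar cells, in 5.77% of db/db and 18.2% of wild-type OFF bipolar cells, and in 0.230% of db/db and 0.227% of wild-type rods.

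The promoters of 3 genes are shown because their genes were read in different classes: Grm6 mainly in ON subtypes, Trpm1 in all 3 named bipolar subtypes and Gnb5 in photoreceptors as well. Each is the 250 bases before the gene's first RefSeq start (GRCm38.p6, plus strand), at chr11:50850435-50850684 for Grm6, chr7:64153585-64153834 for Trpm1 and chr9:75306038-75306287 for Gnb5. Capitals mark TAATCC read on the opposite strand as GGATTA, the core bound by the photoreceptor and bipolar factors OTX2 and CRX.
Grm6: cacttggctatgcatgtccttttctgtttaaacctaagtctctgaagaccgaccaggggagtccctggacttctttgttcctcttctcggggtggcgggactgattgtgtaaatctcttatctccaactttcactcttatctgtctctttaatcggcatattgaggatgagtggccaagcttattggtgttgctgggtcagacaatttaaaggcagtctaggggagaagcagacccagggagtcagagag
Trpm1: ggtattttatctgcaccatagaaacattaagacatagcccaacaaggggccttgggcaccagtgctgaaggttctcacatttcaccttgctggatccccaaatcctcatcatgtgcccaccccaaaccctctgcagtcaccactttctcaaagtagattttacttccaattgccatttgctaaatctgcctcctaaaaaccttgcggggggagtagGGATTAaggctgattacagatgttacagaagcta
Gnb5: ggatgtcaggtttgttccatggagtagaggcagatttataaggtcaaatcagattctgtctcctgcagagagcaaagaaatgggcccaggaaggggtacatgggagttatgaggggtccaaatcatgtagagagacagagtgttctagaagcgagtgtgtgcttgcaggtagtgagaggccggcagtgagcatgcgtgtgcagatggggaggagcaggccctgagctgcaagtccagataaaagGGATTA
The motif began 34 bases before the start in Trpm1 and 6 bases before it in Gnb5, and these letters are not in this window of Grm6. A later RefSeq window of Trpm1, chr7:64185209-64185458, lacked the motif, and which start these cells use was not tested. RefSeq windows existed for 9 of the 10 genes (11 windows), and 2 windows held the motif on either strand, both of them printed here. Among all 32851 windows of this length 2054, or 6.25%, held it. A match is a string of letters and not a measured binding site.

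Levels over 15 class and library groups, as log2(CPM + 10), showed which of 11257 genes ran most like the receptor and the channel. The groups of a library share its depth and free RNA, so the coefficients are descriptions. For Grm6 the nearest were Isl1 (Pearson r 0.982), Igfn1 (0.976), Smtn (0.970), Bhlhe23, a transcription factor of rod bipolar cells (0.969), and St18 (0.961), and Isl1 and Igfn1 were among the naming markers, as was Trnp1 below. For Trpm1 the nearest were Gng13 (0.989), Fam135b (0.981), Trnp1 (0.979), Pcp2, a modulator of Go signalling in bipolar cells (0.960), and C130073E24Rik (0.953). Grm6 correlated with Nyx at 0.952, Gpr179 at 0.948, Trpm1 at 0.915, Gnb5 at 0.276 and Lrit3 at -0.425. The channel thus ran closest to Gng13, and the receptor closer to Nyx and Gpr179 than to the channel.

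The bipolar subtypes split into 11 clusters, each called here by its leading gene, and the cascade was not uniform over them. Levels of clusters are given below 50 cells too, and rest on as few as 6 cells in a library. Among ON cone clusters the Cck cluster (49 db/db and 69 wild-type cells) had Grm6 at 449 CPM in db/db and 518 CPM in wild type, the Cdh9 cluster (99 db/db and 94 wild-type cells) at 286 CPM in db/db and 331 CPM in wild type, and the Fn1 cluster (26 db/db and 48 wild-type cells) at 268 CPM in db/db and 307 CPM in wild type. Trpm1 was at 2460 CPM in db/db and 2626 CPM in wild type in the Cck cluster, at 1355 CPM in db/db and 1252 CPM in wild type in the Cdh9 cluster, and at 1023 CPM in db/db and 1019 CPM in wild type in the Fn1 cluster. Both genes were highest in the Cck cluster in each library, for Trpm1 with intervals disjoint from the other ON cone clusters. The Neurod2 cluster (15 db/db and 26 wild-type cells) had 0 Grm6 UMIs in both libraries, which together allows up to 30.4 CPM. It still held Trpm1 at 543 CPM in db/db and 674 CPM in wild type, Gpr179 at 339 CPM in db/db and 389 CPM in wild type, and Isl1 at 837 CPM in db/db and 790 CPM in wild type. The unnamed Gas1 cluster showed the reverse, with Grm6 at 121 CPM (8 UMIs) in db/db and 233 CPM (25 UMIs) in wild type but Trpm1 at 1 UMI in db/db (15.1 CPM) and 10 UMIs in wild type (93.4 CPM), while Gng13 was at 2344 CPM in db/db and 2241 CPM in wild type. Grm6 and Trpm1, which act in series, were therefore not read together in every cluster.

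**Figure D2:**
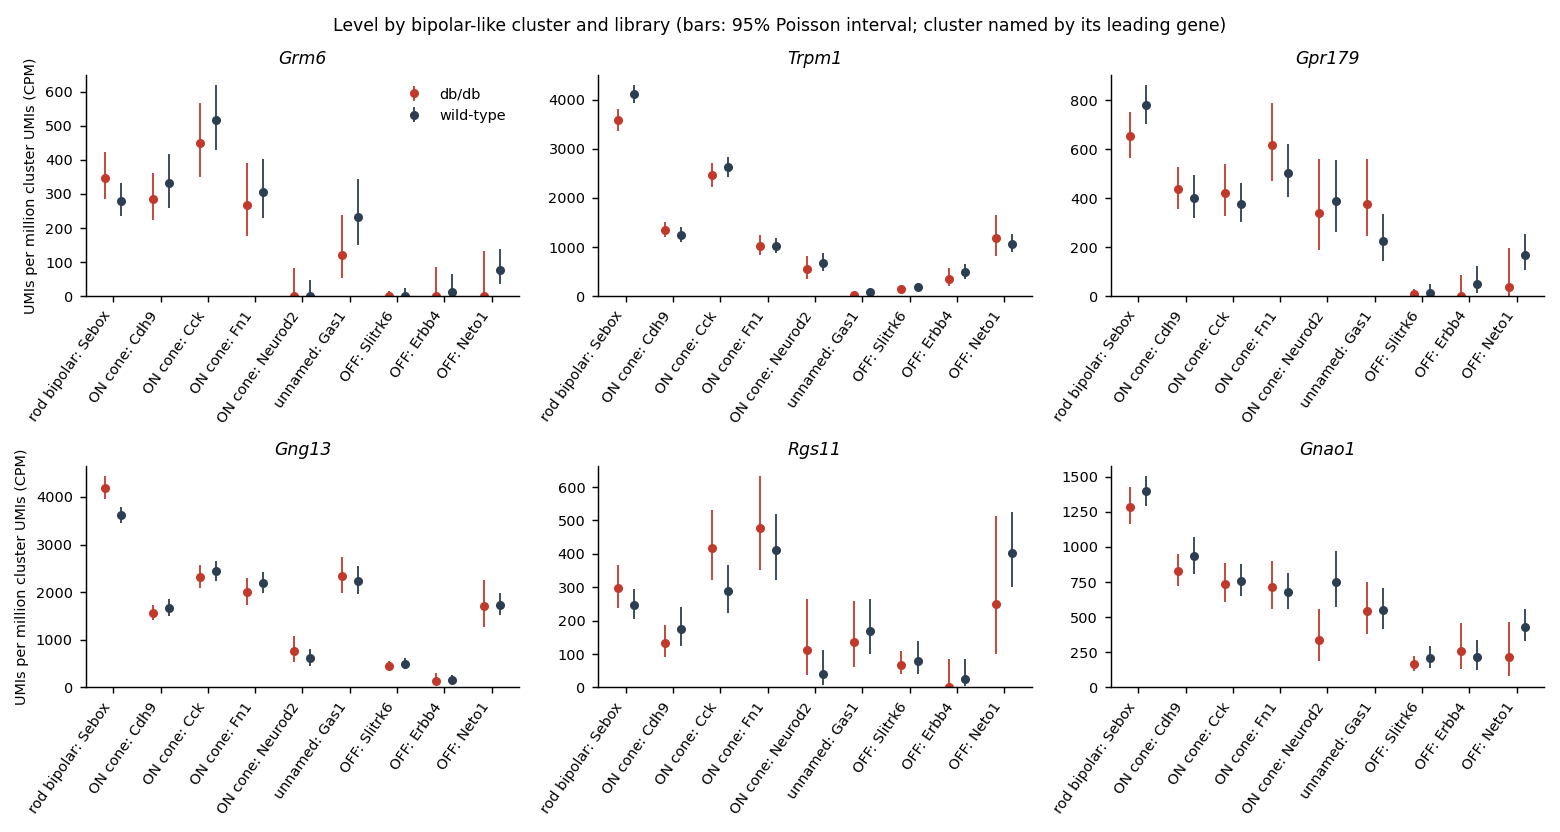
Level of 6 cascade genes in CPM of the cluster (vertical axes, linear) in 9 bipolar clusters named by subtype and leading gene, db/db left of wild type, with exact Poisson 95% intervals. Grm6 is at 0 in the Neurod2 cluster and Trpm1 near 0 in the Gas1 cluster, and among OFF clusters Trpm1 and Gng13 are highest in the Neto1 cluster (1175 CPM of Trpm1 in db/db, 1070 CPM in wild type).

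OFF clusters differed more. The Slitrk6 cluster (90 db/db and 66 wild-type cells) had Trpm1 at 144 CPM in db/db and 186 CPM in wild type, the Erbb4 cluster (15 db/db and 31 wild-type cells) at 351 CPM in db/db and 489 CPM in wild type, and the Neto1 cluster (6 db/db and 30 wild-type cells), which also carried Tacr3 and Syt2, at 1175 CPM in db/db and 1070 CPM in wild type. Gng13 was at 454 CPM in db/db and 492 CPM in wild type in the Slitrk6 cluster, at 140 CPM in db/db and 155 CPM in wild type in the Erbb4 cluster, and at 1710 CPM in db/db and 1738 CPM in wild type in the Neto1 cluster. The Neto1 cluster gave 33 of the 82 Trpm1 UMIs of OFF bipolar cells in db/db and 141 of 210 in wild type, and 48 of 161 Gng13 UMIs in db/db and 229 of 316 in wild type. Grm6 had 0 UMIs in the Slitrk6 cluster of both libraries, and 10 of the 11 wild-type OFF UMIs lay in the Neto1 cluster.

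A gene is called measured in a class where the libraries together hold 50 or more of its UMIs there, and 1.5-fold was the size set for naming a difference. In rod bipolar cells 0 of 8 measured cascade genes differed by 1.5-fold, a count near the 11.1% of all 2979 measured genes that did, and their median log2 ratio of db/db to wild type was 0.09 against -0.03 over all measured genes. Grm6 had a log2 ratio of 0.31 (95% interval -0.07 to 0.69), at 348 CPM in db/db and 280 CPM in wild type. Trpm1 had -0.20 (-0.31 to -0.09), Gpr179 -0.26 (-0.51 to -0.00) and Gng13 0.21 (0.11 to 0.32), and these 3 intervals did not include 0. Rgs7 at 0.15 (-0.39 to 0.68), Rgs11 at 0.26 (-0.15 to 0.67), Gnao1 at -0.12 (-0.30 to 0.06) and Gnb5 at 0.04 (-0.25 to 0.33) had intervals on both sides of 0. Nyx (35 UMIs over both libraries) and Lrit3 (4 UMIs) were under the minimum. In 3 alternative settings 1 gene passed 1.5-fold: Grm6 at 0.82 with every cell thinned to 1000 UMIs, Rgs11 at 0.63 with at most 10% mitochondrial UMIs and Rgs7 at 0.61 with equal weight per cell. With thinning Trpm1 was at -0.00 and Gpr179 at 0.01. Summed Müller glia markers in these cells were at 301 CPM in db/db (10 of 12 detected, Slc1a3 and Crym at 0) and 835 CPM in wild type (12 of 12), summed rod markers were at 6321 CPM in db/db and 7844 CPM in wild type, and the median mitochondrial share was 8.92% in db/db and 7.33% in wild type. Their part in these ratios was not tested.

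Within ON cone bipolar cells 0 of 9 measured cascade genes differed by 1.5-fold, a count near the 8.67% of all 4819 measured genes that did, with a median log2 ratio of -0.04 against -0.02 over all measured genes. Grm6 had a log2 ratio of -0.20 (-0.49 to 0.09) and Trpm1 of -0.04 (-0.17 to 0.09). Nyx had the largest, 0.51 (-0.01 to 1.03), and Gnb5 the lowest, -0.25 (-0.50 to -0.00). Both depended on the settings. Nyx was past 1.5-fold at 0.61 with at most 10% mitochondrial UMIs, 0.83 without the top doublet scores, 0.87 at clustering resolution 2.0 and 0.59 with equal weight per cell. Gnb5 was at 0.07 with at most 10% mitochondrial UMIs and at -0.52 without the top doublet scores. Gpr179 was at 0.14 (-0.11 to 0.38), Gng13 at -0.11 (-0.23 to 0.01), Rgs7 at 0.15 (-0.67 to 0.96), Rgs11 at 0.10 (-0.22 to 0.42) and Gnao1 at -0.09 (-0.28 to 0.09). The intervals of 8 of the 9 genes held 0. Lrit3, with 10 UMIs, was not measured. Amacrine markers in these cells summed to 492 CPM in db/db (7 of 11 detected, Slc32a1 among those at 0) and 859 CPM in wild type (8 of 11, Gad2 among those at 0), Müller glia markers to 1283 CPM in db/db and 1632 CPM in wild type (12 of 12 in each), and rod markers to 7849 CPM in db/db and 10131 CPM in wild type (10 of 10 in each). Fosb, an immediate early gene, was at 9.15 CPM in db/db and 90.2 CPM in wild-type ON cone bipolar cells. Their part in these ratios was not tested.

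**Figure D3:**
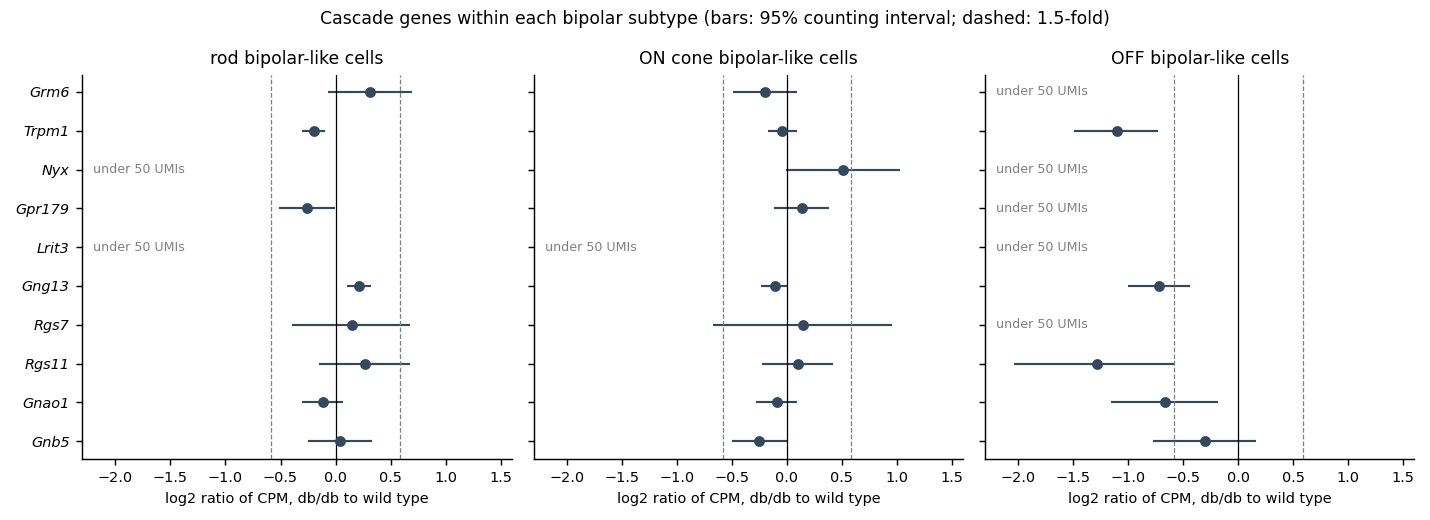
Log2 ratio of CPM, db/db to wild type (horizontal axis), of each cascade gene with 50 or more UMIs in rod bipolar, ON cone bipolar or OFF bipolar cells, with 95% counting intervals as bars and 1.5-fold as dashed lines. Genes under that minimum have no point. All points lie inside the dashed lines in the ON subtypes, and Trpm1 (-1.10), Gng13 (-0.72), Rgs11 (-1.29) and Gnao1 (-0.67) lie below them in OFF bipolar cells.

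Inside the ON cone clusters, 3 of 25 gene and cluster pairs differed by 1.5-fold, of which 0 lay in the Cck cluster, where 12.2% of all measured genes did. Nyx in the Cdh9 cluster was higher in db/db, with 51 UMIs (206 CPM) against 20 UMIs in wild type (92.0 CPM) and a log2 ratio of 1.16 (0.39 to 1.98), beside 9.31% of all measured genes there. In the Cck cluster Nyx was at 65.1 CPM in db/db and 99.3 CPM in wild type, a log2 ratio of -0.61 (-1.85 to 0.52), from under 50 UMIs. Gnb5 in the Fn1 cluster was at 506 CPM in db/db and 770 CPM in wild type, a log2 ratio of -0.60 (-1.10 to -0.13), beside 11.4% there. Gnao1 in the Neurod2 cluster was at 339 CPM in db/db (15 UMIs) and 751 CPM in wild type (58 UMIs), a log2 ratio of -1.15 (-2.07 to -0.31), beside 14.2% there. The Cck value of Nyx came from under the minimum and its interval included 0, so it set no direction there. Its difference from the Cdh9 cluster was not tested.

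Within OFF bipolar cells, taken as a class, 4 of the 5 measured cascade genes were at least 1.5-fold lower in db/db, beside 6.8% of all 2852 measured genes lower by that much and 12.2% in either direction. Their median log2 ratio was -0.72 against -0.00 over all measured genes. Trpm1 was at 267 CPM in db/db and 574 CPM in wild type, a log2 ratio of -1.10 (-1.49 to -0.73). Gng13 had -0.72 (-1.0 to -0.44), Rgs11 -1.29 (-2.04 to -0.58), Gnao1 -0.67 (-1.16 to -0.18) and Gnb5 -0.30 (-0.77 to 0.17). Of the genes under the minimum, Gpr179 had 3 UMIs in db/db and 28 in wild type, Grm6 had 0 in db/db and 11 in wild type, Nyx had 2 in db/db and 7 in wild type, Lrit3 had 1 in each, and Rgs7 had 11 in db/db and 13 in wild type. With 3 UMIs in place of the 0, the log2 ratio of Grm6 was -1.62, and its interval reached up to -1.07. The Neto1 cluster gave 10 of the 11 wild-type Grm6 UMIs, and in db/db that cluster held only 6 cells. Amacrine markers in OFF bipolar cells summed to 483 CPM in db/db (5 of 11 detected, among those at 0 Gad1, Gad2 and Slc32a1) and 746 CPM in wild type (8 of 11, among those at 0 Gad1 and Pax6). Müller glia markers there were higher in db/db, at 1334 CPM in db/db and 732 CPM in wild type (11 of 12 in each, Kcnj10 at 0), as were cone markers, at 2254 CPM in db/db and 1686 CPM in wild type (9 of 10 in each, Cnga3 at 0), and rod markers were at 9865.5 CPM in db/db and 9282 CPM in wild type. Fosb was at 16.3 CPM in db/db and 142 CPM in wild type. Their part was not tested.

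The mix of OFF clusters differed between the libraries. The Neto1 cluster, richest in Trpm1 and Gng13, was 1.2% of db/db and 4.32% of wild-type bipolar cells (ratio 0.278, 0.0946 to 0.679), and the Slitrk6 cluster, poor in Trpm1, was 18.0% of db/db and 9.50% of wild-type bipolar cells (ratio 1.90, 1.36 to 2.65). The log2 ratio was therefore split into a mix part, the ratio given by db/db cluster shares at wild-type levels, and a level part, the rest. The mix part was -0.89 for Trpm1, -0.63 for Gng13, -0.85 for Rgs11, -0.34 for Gnao1 and -0.27 for Gnb5. The level part was -0.21 for Trpm1, -0.09 for Gng13, -0.44 for Rgs11, -0.32 for Gnao1 and -0.03 for Gnb5. The mix part was the larger for all 5 genes, though for Gnao1 the parts were nearly equal. Within single clusters Trpm1 had a log2 ratio of -0.37 (-1.13 to 0.41) in the Slitrk6 cluster, -0.48 (-1.44 to 0.41) in the Erbb4 cluster and 0.13 (-0.46 to 0.69) in the Neto1 cluster. Over the OFF clusters 2 of 10 measured pairs differed by 1.5-fold, Gnao1 and Rgs11 in the Neto1 cluster, where 24.6% of all measured genes did and the db/db side held 6 cells, while 7.44% of measured genes did in the Slitrk6 and 13.5% in the Erbb4 cluster. The share of OFF bipolar cells among bipolar cells, 1.21 times as high in db/db as in wild type, depended on the settings: this ratio was 0.47 with a minimum of 500 genes per cell, where Trpm1 had a log2 ratio of -0.19, and 0.51 at clustering resolution 2.0, where Trpm1 had -0.31.

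**Figure D4:**
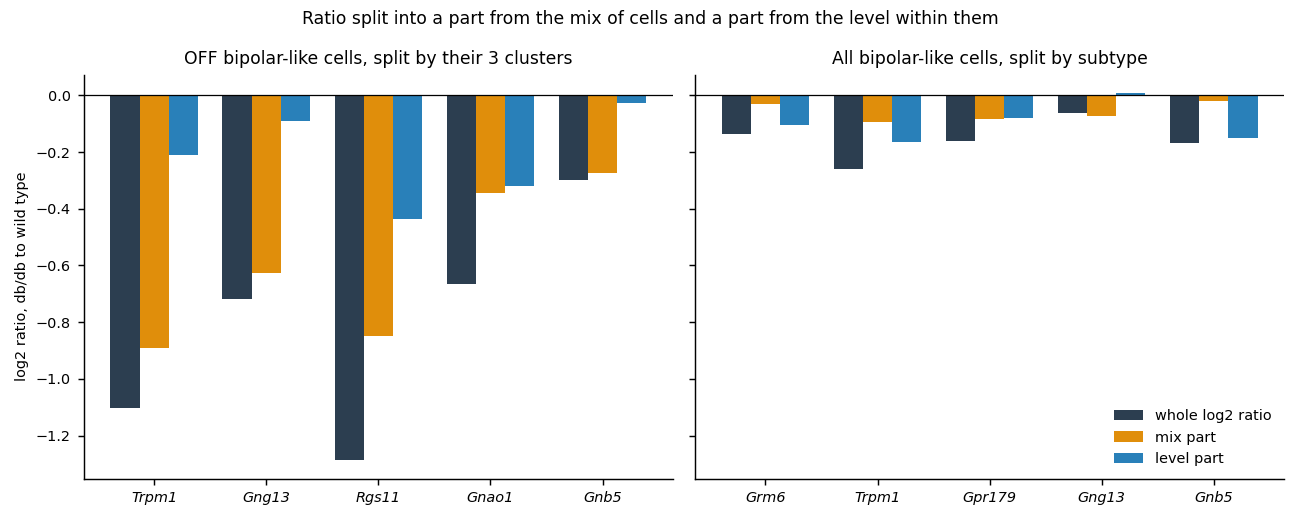
Whole log2 ratio of db/db to wild type and its mix and level parts (vertical axis; bars from 0) for 5 cascade genes in OFF bipolar cells split by 3 clusters and in all bipolar cells split by subtype. In OFF bipolar cells the mix part of Trpm1 is -0.89 of -1.10, and over all bipolar cells its parts are -0.10 and -0.17.

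Pooled over all bipolar cells, the same split gave small values. Rod bipolar cells held 18.1% of bipolar UMIs in the db/db library and 21.9% in the wild-type library. Trpm1 was at 1452 CPM in db/db and 1739 CPM in wild type, a log2 ratio of -0.26 (-0.33 to -0.19) with a mix part of -0.10 and a level part of -0.17 by subtype, or -0.15 and -0.11 by cluster. Grm6 was at 196 CPM in db/db and 215 CPM in wild type, a log2 ratio of -0.14 (-0.34 to 0.07) with parts of -0.03 and -0.11. Gng13 had -0.06 (-0.13 to 0.00) with parts of -0.07 and 0.01, so its higher level in rod bipolar cells did not show in the pool. Gpr179 had -0.16 (-0.32 to -0.00) with parts of -0.08 and -0.08, and Gnao1 -0.22 (-0.33 to -0.10) with parts of -0.07 and -0.15.

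Rods and Müller glia, which should lack the receptor and the channel, held low levels of several cascade genes, and some of these were lower in db/db. In rods 3 of 8 measured cascade genes were at least 1.5-fold lower, beside 1.96% of all 12010 measured genes. Gpr179 was at 1.24 CPM in db/db and 2.83 CPM in wild-type rods (log2 ratio -1.19, -1.83 to -0.58), Trpm1 at 4.78 CPM in db/db and 8.70 CPM in wild type (-0.87, -1.19 to -0.54), and Grm6 at 1.43 CPM in db/db and 2.17 CPM in wild type (-0.60, -1.24 to 0.02). Rod Gnb5, by contrast, had a log2 ratio of 0.10 (0.07 to 0.13). In Müller glia Trpm1 was at 20.6 CPM in db/db and 90.8 CPM in wild type (-2.14, -3.10 to -1.31) and Gng13 at 39.6 CPM in db/db and 152 CPM in wild type (-1.94, -2.61 to -1.33), 2 of 6 measured cascade genes beside 5.51% of all measured genes lower there. Bipolar cells were 4.56% of db/db and 6.79% of wild-type cells, and the part of that difference in these low levels was not tested.

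Of 14 genes listed as further partners of the ON cascade, 10 were measured in rod bipolar cells, with 1 at least 1.5-fold higher in db/db and 1 lower. Of all measured genes, 11.1% in rod bipolar, 8.67% in ON cone bipolar and 12.2% in OFF bipolar cells were past 1.5-fold. The counts of this list and those below rest on few genes and were not tested against these shares. The higher one was Rgs9bp, an anchor of RGS proteins (176 CPM in db/db, 117 CPM in wild type, log2 ratio 0.59, 0.02 to 1.16), and the lower one was Lrit2, a relative of Lrit3 (81.1 CPM in db/db and 135 CPM in wild type, -0.74, -1.47 to -0.04). In ON cone bipolar cells 11 were measured and 1 was lower, Rgs7bp, the membrane anchor of RGS7 (98.8 CPM in db/db and 152 CPM in wild type, -0.62, -1.12 to -0.13). In OFF bipolar cells 8 were measured. Past 1.5-fold there, Trpm3, a channel of the same family as Trpm1, was higher (329 CPM in db/db, 194 CPM in wild type, 0.76, 0.31 to 1.22). Pcp2 was lower (271 CPM in db/db and 617 CPM in wild type, -1.19, -1.57 to -0.82). Both are ratios of the whole OFF class, whose mix of clusters differed between the libraries, and their mix and level parts are not given. Gnb3, the beta subunit of the cascade's G protein, had log2 ratios of 0.07, -0.13 and -0.27 in rod bipolar, ON cone bipolar and OFF bipolar cells, and Pcp2 had 0.01 and 0.10 in the ON subtypes. Cabp5, a calcium-binding protein of bipolar cells, had log2 ratios of -0.19, 0.34 and 0.17 in rod bipolar, ON cone bipolar and OFF bipolar cells. The median of the partners was -0.10 in rod bipolar, -0.11 in ON cone bipolar and 0.13 in OFF bipolar cells.

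Of 27 paralogs of cascade genes, 7 were measured in rod bipolar, 10 in ON cone bipolar and 7 in OFF bipolar cells. Rgs9, the photoreceptor member of the RGS family, was at least 1.5-fold lower in db/db in all 3 subtypes: 71.0 CPM in db/db against 111 CPM in wild-type rod bipolar cells (-0.64, -1.44 to 0.11), 76.9 CPM in db/db against 125 CPM in wild-type ON cone bipolar cells (-0.70, -1.26 to -0.15) and 104 CPM in db/db against 169 CPM in wild-type OFF bipolar cells (-0.70, -1.36 to -0.06). Rgs9 was also at least 1.5-fold lower in db/db microglia or macrophages. It was not among the measured paralogs past 1.5-fold in rods, cones, Müller glia or the bipolar clusters high in rod transcripts. Free RNA was estimated from rod markers at 13.9 to 21.8% of a subtype's UMIs, and its part in the Rgs9 ratios was not tested. Gnai3, an inhibitory G protein alpha subunit, was higher in ON cone bipolar cells (0.59, -0.18 to 1.37) and Gnaq in OFF bipolar cells (0.78, 0.01 to 1.58). The OFF ratios of Rgs9 and Gnaq are also of the whole class, without mix and level parts. The medians were -0.18, -0.10 and 0.15 in rod bipolar, ON cone bipolar and OFF bipolar cells. The most abundant paralog, Gnb1, a beta subunit also used by rods, had log2 ratios of -0.27, -0.33 and 0.15 in that order, and Gng3 had -0.39, -0.32 and 0.06. Grm5 had -0.06 and -0.16 in the ON subtypes, and 5 UMIs in db/db and 23 UMIs in wild-type OFF bipolar cells.

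Of 11 genes known as partners of the cascade across the photoreceptor synapse, 6 were measured in rod bipolar cells, 8 in ON cone and 8 in OFF bipolar cells. Dmd, which encodes dystrophin, had 16 UMIs in db/db and 69 UMIs in wild-type rod bipolar cells (54.1 CPM in db/db and 141 CPM in wild type, log2 ratio -1.38, -2.27 to -0.58), and log2 ratios of 0.14 in ON cone bipolar and -0.13 in OFF bipolar cells. Dmd is also a gene of Müller glia, whose markers stood at 301 CPM in db/db and 835 CPM in wild-type rod bipolar cells, and their part was not tested. Elfn2 was higher in db/db ON cone bipolar cells (132 CPM against 87.3 CPM in wild type, 0.59, 0.08 to 1.11). Slc17a7, the vesicular glutamate transporter, had log2 ratios of 0.16, -0.10 and 0.00 in rod bipolar, ON cone bipolar and OFF bipolar cells, Cacna2d4 had 0.23, -0.04 and -0.14, and Stx3 had -0.05, -0.07 and -0.04. The medians were 0.01, -0.06 and -0.13 in the same order. In rods all 11 were measured, with a median of -0.03 (lowest -0.16, highest 0.20). In cones all 11 were measured too, with a median of -0.03 (lowest -0.27, highest 0.04). The part of free RNA in the bipolar readings of these genes was not tested.

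Of 8 ionotropic receptor genes of OFF bipolar cells, 4 were measured in that class, with 2 at least 1.5-fold higher in db/db and 1 lower. Of all 2852 genes measured there, 12.2% were past 1.5-fold in either direction. Grik1 (1960 CPM in db/db, 1257 CPM in wild type, 0.64, 0.46 to 0.82) and Gria1, an AMPA receptor subunit (153 CPM in db/db and 92.9 CPM in wild type, 0.72, 0.06 to 1.40), were higher, and Neto1, a kainate receptor auxiliary protein (137 CPM in db/db and 434 CPM in wild type, -1.67, -2.19 to -1.17), was lower. Their mix and level parts were 0.49 and 0.15 for Grik1, 0.71 and 0.01 for Gria1 and -1.85 and 0.19 for Neto1, the mix part being the larger for each, as it was for Trpm1. Gria2 was read in both cone bipolar subtypes. It was at 1200 CPM in db/db and 1623 CPM in wild-type OFF bipolar cells, a log2 ratio of -0.44. In ON cone bipolar cells it was at 1133 CPM in db/db and 1050 CPM in wild type, a log2 ratio of 0.11. The median of the measured receptors was 0.10 in OFF bipolar cells, 0.11 over 2 measured in ON cone bipolar cells and 0.05 for the 1 measured in rod bipolar cells, Gria1.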

How the data were processed

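The deposited files hold raw UMI counts per gene and cell barcode; the authors made them with Cell Ranger 6.0.1 per the file headers, against mm10 per the submitters' processing notes, and whether intronic or antisense reads were counted is not given in the sources used here. Per the labels' protocols about 6000 cells were loaded and about 3000 targeted per channel, while 11083 db/db and 10308 wild-type barcodes were deposited, of which 10963 and 10230 passed a minimum of 200 genes and a maximum of 20% mitochondrial UMIs. Cells were clustered with scanpy 1.11.5 and leidenalg 0.10.2 (2000 variable genes without the cascade genes and pathway lists, 40 components, 15 neighbours, resolution 1.0), first over all cells, then over cells outside rods, then over bipolar cells. A cluster was named when at least 3 markers of a class were detected at 2-fold over the rest and its 10 leading genes did not favour another class. Scrublet marked 2 db/db and 0 wild-type cells and was taken not to have worked, so doublets were kept, with an alternative that drops the top 8% by score.

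Within each library and class the UMIs of a gene were added up and divided by the class total (CPM). Ratios of db/db to wild type carry exact conditional binomial intervals, levels exact Poisson intervals and shares exact Clopper-Pearson intervals, all at 95%. In ratios, 3 UMIs stood in for 0. To compare shares of cells, each cell was thinned to 1000 UMIs, which left out shallower cells and kept 9574 db/db and 8338 wild-type cells. The free RNA alternative subtracts 13.9 to 21.8% of a subtype's UMIs, as estimated from rod markers. Scripts were tested on simulated counts. Of the 32285 gene identifiers, 32158 were found in GENCODE M21, which gave the positions. Promoters came from the RefSeq table for GRCm38.p6, in which Rgs11 was not matched. Levels in 3' libraries are compared between classes for 1 gene, not between genes. All cascade genes are named, and of each list the genes past 1.5-fold in a subtype and its 3 most abundant genes, and for the receptor and the channel the 5 genes with the most similar levels. The 15 alternatives changed the filters on cells, the clustering resolution, the genes left out of it, the naming of subtypes, doublets, thinning, weights per cell, free RNA, scaling and the minimum of UMIs, or held the cluster shares at those of wild type, the last chosen after seeing the data. Of the partner list 1 gene is not reported here and was left out of its counts and medians. The cascade genes and lists were chosen with earlier results of these data known.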

Additional observations from a re-analysis of the deposited data

Results flagged for a closer look

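The class ratios of Gng13 had opposite signs in rod bipolar and OFF bipolar cells. Its log2 ratio of db/db to wild type was 0.21 (95% counting interval 0.11 to 0.32) in rod bipolar cells and -0.72 (-1.0 to -0.44) in OFF bipolar cells. The difference between the subtypes was not tested. In OFF bipolar cells the mix part of the ratio was -0.63 and the level part -0.09, and in rod bipolar cells the ratio was 0.07 once the top 8% by doublet score were dropped.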

How the results depend on the processing

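Over 15 alternatives, 148 recomputed values of the main results stayed within the counting interval of the reported value (counts of genes: within 1.5 times) and 20 moved outside it. No log2 ratio past 1.5-fold changed sign. Of those under it, at least 1 setting turned the sign of Gpr179 and Gnb5 in rod bipolar cells, of Trpm1, Rgs7, Rgs11, Gnb5 and the median (to 0.03) in ON cone bipolar cells, of Gnb5 in OFF bipolar cells and of the mix part of Grm6 over all bipolar cells (2 of 12 settings above 0), and the ratio of OFF shares crossed 1. With cells thinned to 1000 UMIs, Grm6 in rod bipolar cells had a log2 ratio of 0.82 (0.31 as reported) and Trpm1 one of -8.12e-05 (-0.20 as reported). Across alternatives Grm6 in rod bipolar cells ranged over 0.09 to 0.82 and Trpm1 over -0.28 to -0.00. The number of cascade genes past 1.5-fold in rod bipolar cells, 0, became 1 with at most 10% mitochondrial UMIs, with thinning and with equal weight per cell. In ON cone bipolar cells Trpm1 was 0.13 once the top 8% by doublet score were dropped and 0.14 at resolution 2.0 (-0.04 as reported). There the number past 1.5-fold, 0, became 1 in those settings, with at most 10% mitochondrial UMIs, with equal weight per cell and with no minimum of UMIs. In OFF bipolar cells the number past 1.5-fold, 4, became 1 with at least 500 genes per cell, 2 at resolution 2.0, with thinning and with equal weight per cell, and 7 with no minimum. The OFF median, -0.72, was -0.21 with wild-type shares of the clusters, an alternative chosen after seeing the data. The ratio of OFF shares, 1.21, was 0.47 with at least 500 genes and 0.51 at resolution 2.0. Apart from settings whose construction shows it, the cause was not tested. With 1 library per genotype no replicate could be left out. No paired analysis was possible because each genotype has 1 library and the result comes from no test. Depth limits Nyx and Lrit3 in rod bipolar cells and Grm6, Nyx, Gpr179, Lrit3 and Rgs7 in OFF bipolar cells, and mice within a library cannot be told apart.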
